A study of Mus musculus with 9 samples.

Results

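The 7 chemokine ligand genes described here were chosen by name, out of the 24061 gene symbols counted. They are *Cxcl1*, *Cxcl2*, *Cxcl3* and *Cxcl5*, whose products attract neutrophils, and *Cxcl14*, *Cxcl16* and *Cx3cl1*, whose products act mostly on other leukocytes. They were measured by RNA-seq in C57BL/6J bone-marrow-derived macrophages (BMDMs), which are bone marrow cells of female mice turned into macrophages in a dish by 7 days in L-cell conditioned medium and then kept 1 day without serum. Whether each culture came from its own mouse is not given in the sources used here. The 3 groups of 3 separately differentiated cultures were treated on day 8. The Veh cultures received DMSO alone. LPS cultures received DMSO and then lipopolysaccharide, a bacterial ligand of TLR4, at 10 ng/mL for 2 hr. T0+LPS cultures received 500 nM T0901317 (T0), a synthetic agonist of the liver X receptors (LXRs), 3 hr before the same LPS. All 9 libraries came from cells in L-cell medium, a source of M-CSF, and no library analysed here received T0 without LPS.

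CXC chemokines are small secreted proteins that guide leukocytes along a gradient. The ligands CXCL1, CXCL2, CXCL3 and CXCL5 signal through CXCR2 on neutrophils, and macrophages that sense LPS are a known source of the first 3, through NF-κB. CXCL16 and CX3CL1 differ in that they are made as membrane proteins with a chemokine head on a mucin stalk, bind CXCR6 and CX3CR1, and are released when the proteases ADAM10 and ADAM17 cut them. CXCL14 is a ligand found in many resting epithelia, and its receptor use is less settled. LXRs are sterol-sensing nuclear receptors that switch on cholesterol efflux genes and can also lower inflammatory transcripts in macrophages.

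Each of the 7 genes had 1 row in the table, so no transcripts had to be added up. On mm10, the 4 neutrophil-attracting ligands lie on the plus strand of chromosome 5, *Cxcl5* at chr5:90759298-90761625, *Cxcl3* at chr5:90786101-90788093, *Cxcl1* at chr5:90891245-90893115 and *Cxcl2* at chr5:90903899-90905938. *Ppbp* and *Pf4* sit between *Cxcl5* and *Cxcl3*, and *Cxcl15* between *Cxcl3* and *Cxcl1*. *Cxcl14* is at chr13:56288643-56296551 and *Cxcl16* at chr11:70454234-70459984, both on the minus strand, and *Cx3cl1* is at chr8:94772180-94782426 on the plus strand. RefSeq promoter windows on GRCm38.p6, the assembly of mm10, matched 5 of the 7 genes, with *Cxcl5* and *Cxcl16* having no entry. The 100 bases before the start of *Cxcl1*, *Cxcl2* and *Cxcl3* are shown because these genes moved together, and those of *Cx3cl1* as an LPS-induced ligand outside the cluster. Capitals mark matches, on either strand, to a κB-type decamer and to the TATA-box-like letters TATAAA and ATAAAAG. The decamer is GGGAATTTCC with any base allowed in place of the middle T that follows AA.
Cxcl1 (chr5:90891145-90891244, plus strand): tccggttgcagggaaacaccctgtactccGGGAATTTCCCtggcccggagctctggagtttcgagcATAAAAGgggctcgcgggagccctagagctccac
Cxcl2 (chr5:90903799-90903898, plus strand): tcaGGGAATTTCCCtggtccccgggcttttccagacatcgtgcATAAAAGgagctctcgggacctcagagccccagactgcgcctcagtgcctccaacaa
Cxcl3 (chr5:90786001-90786100, plus strand): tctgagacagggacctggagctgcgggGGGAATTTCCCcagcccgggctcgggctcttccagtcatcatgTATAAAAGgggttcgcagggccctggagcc
Cx3cl1 (chr8:94772080-94772179, plus strand): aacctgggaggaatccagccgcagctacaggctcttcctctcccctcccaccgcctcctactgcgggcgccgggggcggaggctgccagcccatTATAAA

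The longest run of letters common to the *Cxcl1*, *Cxcl2* and *Cxcl3* windows was the 11-base GGGAATTTCCC, which began 71, 97 and 73 bases before their starts. These 11 bases hold the κB-type decamer on both strands, 1 base apart. That decamer occurred in 112 of all 32851 RefSeq promoter windows (250 bases before and 50 after a start), or 0.341%, and in neither the *Cx3cl1* nor the *Cxcl14* window. A looser κB-type pattern, any 5 bases between GGG and CC, which every match of the decamer also satisfies, was present in 50.8% of windows and in the same 3 of the 5 members. ATAAAAG began 34, 57 and 29 bases before the starts of *Cxcl1*, *Cxcl2* and *Cxcl3*. It was added to the search after the windows had been seen, was present in 5.42% of all windows, and overlaps TATAAA in *Cxcl3*. TATAAA itself was found in *Cxcl3*, 30 bases before the start, and in *Cx3cl1*, 6 bases before it, against 13.6% of all windows. TATATA (5.67% of windows), the AP-1-type TGANTCA (7.81%) and DR4, a pair of AGGTCA half-sites 4 bases apart that LXR/RXR dimers bind (0.0152%), matched none of the 5 windows. The half-site AGGTCA, held by 16.3% of windows, matched *Cxcl14* only, on the opposite strand and 130 bases before the start. These are matches of letters and not measured binding.

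Libraries held 13299044 to 16467983 counted reads. In the agonist check, 6 of 7 LXR targets were called higher in T0+LPS than in LPS, beside 1.35% of the 9348 genes tested. *Scd2* was up by 3.92, *Abcg1* by 2.09 and *Abca1* by 1.47 on the log2 scale. *Nr1h3*, with 315 unshared bases, was not called, at 0.60 (adjusted p = 0.48, edgeR). Summed macrophage markers (7 of 8 in the table) lay between 23331 and 25533 CPM in Veh, 25873 and 27186 in LPS and 28091 and 29770 in T0+LPS, with no overlap between groups. Most of that sum was *Lyz2*, at a mean of 19747, 21427 and 23738 CPM in Veh, LPS and T0+LPS. In LPS against Veh, 3 of the 6 macrophage markers tested were called higher and 2 lower, beside 32.9% and 31.2% of all genes. The 2 lower were *Fcgr1* (-0.84) and *Mertk* (-0.81). Summed neutrophil markers (10 of 11) lay between 78.3 and 83.8 CPM in Veh, 87.2 and 100.1 in LPS and 85.6 and 98.9 in T0+LPS, nearly all from *Mmp8*, while *S100a9*, with 3 unshared bases, and *Retnlg* were at 0 in every library. Markers of stroma, T cells and mast cells never exceeded 0.661 CPM in sum. *Itgam*, with 3 bases not shared with another row, was at 0. In Veh, LPS and T0+LPS the dendritic cell list averaged 0.343, 2.51 and 2.59 CPM, the B cell list 2.09, 1.32 and 1.13 CPM and the endothelial list 13.3, 8.82 and 9.57 CPM. In LPS against Veh, *Xcr1* of the dendritic list was called higher (log2 fold change 2.90). *S100a8* (1.22) and *Mmp8* (0.21) of the neutrophil list were also called higher. *Cd79b* of the B cell list (-0.66) and *Kdr* of the endothelial list (-0.65) were called lower. The part of these cells in the ligand results was not tested. In bulk RNA, a change in the number of cells of a type cannot be told apart from a change in RNA per cell.

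To learn which ligands resting and LPS-stimulated BMDMs express, their levels were compared (see the plot of levels by library). CPM is the TMM-scaled count relative to library size, where TMM corrects for library composition. *Cxcl1*, *Cxcl2* and *Cxcl3* were low in Veh, at most 5.27 CPM in a library, and among the most induced of the genes tested after LPS. *Cxcl1* was at 0.428, 0.992 and 0.869 CPM in the Veh libraries and at 912, 888 and 920 CPM in the LPS libraries. *Cxcl2* went from 3.96, 5.09 and 5.27 CPM to 3040, 3056 and 3019 CPM. *Cxcl3* went from 0, 0.264 and 0.174 CPM to 215, 223 and 222 CPM. For all 3 genes every LPS library lay far above every Veh library, and the LPS libraries differed among themselves by a coefficient of variation of 0.605% to 1.86%.

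**Figure D1:**
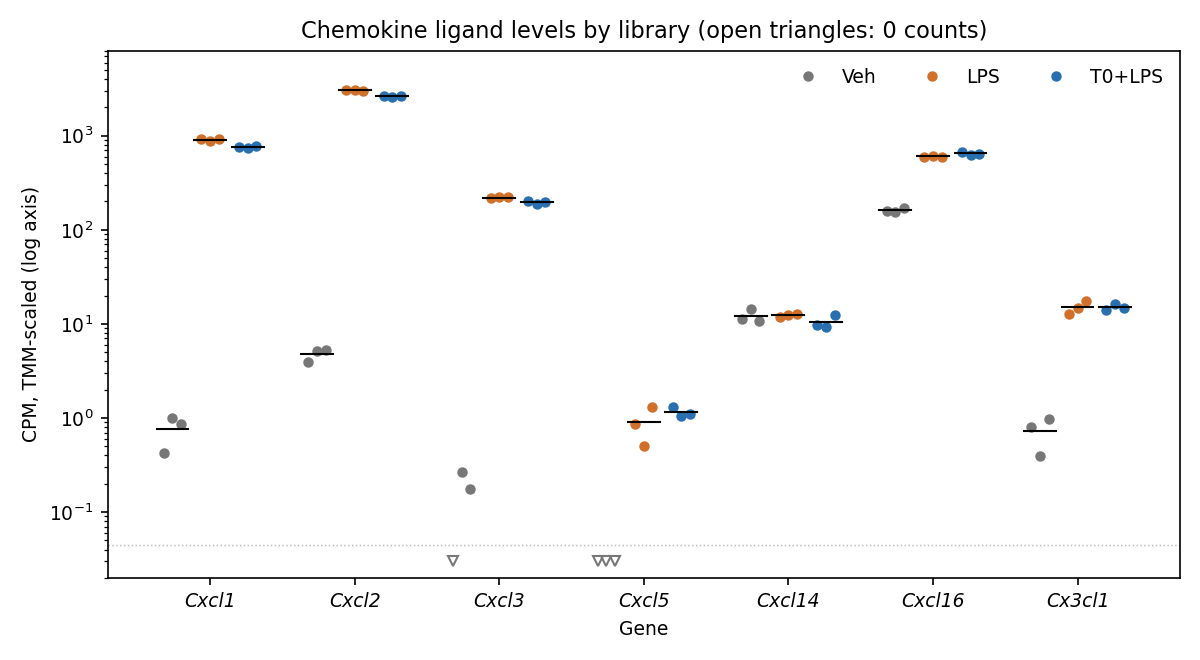
Level of each ligand gene in every library, in TMM-scaled CPM on a log axis, with a horizontal bar at the mean of 3 libraries where no library is at 0 and open triangles for libraries with 0 counts. *Cxcl1*, *Cxcl2* and *Cxcl3* climb from below 6 CPM in Veh to over 180 CPM in both LPS-treated groups, while *Cxcl14* stays between 9.33 and 14.5 CPM throughout.

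The rises passed the test for 5 of the 6 members that could be tested, against 32.9% of the 9559 genes tested being called higher in LPS than in Veh and 31.2% lower. By edgeR's quasi-likelihood test the log2 fold change was 10.24 for *Cxcl1* (adjusted p = 2.8e-20), 9.32 for *Cxcl2* (adjusted p = 6.6e-21) and 10.57 for *Cxcl3* (adjusted p = 1.7e-18). The DESeq2 fit of the same counts had standard errors of 0.24, 0.10 and 0.55. *Cxcl3*, *Cxcl1* and *Cxcl2* ranked 2, 3 and 13 among the 9559 genes by fold change. How precisely these folds are known depends on the few Veh reads. *Cxcl1* rested on 38 Veh reads in all, which gave a 1218-fold rise with a 95% counting interval of 887 to 1722. *Cxcl2* rested on 242 reads, for 642-fold (566 to 731). *Cxcl3* rested on 7 reads, for 1607-fold (780 to 3998), and its log2 fold change moved from 10.57 to 9.94 without Veh replicate 1 and to 11.23 without Veh replicate 2. The intervals of *Cxcl1* and *Cxcl3* overlap, so their order by fold was not resolved at this depth. These intervals cover counting error only.

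*Cxcl5* was of another order of magnitude. It had 0 reads in each Veh library, 11, 7 and 17 in the LPS libraries, and 17, 15 and 16 in the T0+LPS libraries. All 6 stimulated libraries had reads where the Veh libraries had none, yet the gene stayed near 1 CPM and was left out of the LPS against Veh test by the filter on low counts. Set against a floor of 3 reads per Veh library, it was at least 5.06-fold higher in LPS and at least 6.48-fold higher in T0+LPS.

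Outside the cluster, the 2 transmembrane ligands were also induced, to smaller extents. *Cxcl16* was already well expressed in Veh, at 159, 154 and 171 CPM, and reached 599, 615 and 592 CPM in LPS. All LPS libraries were above all Veh libraries, a log2 fold change of 1.90 (DESeq2 standard error 0.05; edgeR adjusted p = 1.9e-15), or 3.73-fold. Part of the *Cxcl16* row, 363 of its 2448 bases, is shared with *Zmynd15*, and how reads there were counted was not tested. *Zmynd15* went from 7.38 to 17.1 CPM. *Cx3cl1* was at 0.802, 0.397 and 0.985 CPM in Veh and 12.6, 14.8 and 17.6 CPM in LPS, again with no overlap. Its log2 fold change was 4.32 (DESeq2 standard error 0.28; edgeR adjusted p = 2.7e-11), or 20.2-fold with a counting interval of 14.5 to 28.8.

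Of all 9559 genes tested, 33.7% had every LPS library above every Veh library, and 33.7% had every LPS library below. *Cxcl14* was the one tested member whose LPS and Veh libraries overlapped. It was at 11.2, 14.5 and 10.8 CPM in Veh and 11.8, 12.3 and 12.9 CPM in LPS, within the range that the Veh libraries span. The log2 fold change was 0.03 with a 95% interval of -0.22 to 0.28 (adjusted p = 0.83, edgeR), and its sign flipped to -0.25 (adjusted p = 0.062) when libraries were scaled by their totals alone. That scaling put the median over all 9559 genes at -0.28, where it was -0.0019 with TMM, so *Cxcl14* lay near the bulk of genes under both.

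When levels are compared per length of transcript, *Cxcl1*, *Cxcl2* and *Cxcl3* stood higher in the order of the ligands in LPS than in Veh. RPKM here is the TMM-scaled CPM per kilobase of the row. In Veh *Cxcl16* led at 65.8 ± 3.52 RPKM (SD, n = 3), followed by *Cxcl14* at 6.67 ± 1.13, *Cxcl2* at 4.41 ± 0.658 and *Cxcl1* at 0.804 ± 0.313. *Cx3cl1* (0.232 ± 0.0957) and *Cxcl3* (0.143 ± 0.132) overlapped, as did *Cxcl3* and *Cxcl5*. In LPS *Cxcl2* led at 2806 ± 17.0 RPKM, ahead of *Cxcl1* at 955 ± 17.7, *Cxcl16* at 246 ± 4.98, *Cxcl3* at 216 ± 4.02, *Cxcl14* at 6.75 ± 0.297, *Cx3cl1* at 4.77 ± 0.798 and *Cxcl5* at 0.542 ± 0.243. No neighbours in that order overlapped. T0+LPS kept the order, except that *Cxcl14* (5.78 ± 0.949) and *Cx3cl1* (4.77 ± 0.355) overlapped.

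Levels differed widely along the chromosome 5 cluster (see the map of the cluster). *Cxcl1* and *Cxcl2*, side by side at one end, carried most of the signal, and *Cxcl5* at the other end had the least of the 4 members. Of the genes between them, *Pf4*, which encodes platelet factor 4, was at 10.8, 34.1 and 40.4 CPM on average in Veh, LPS and T0+LPS, *Ppbp* stayed below 1 CPM on average, and *Cxcl15*, a ligand known from lung, had 0 reads. Of the summed RPKM of the 4 neutrophil-attracting ligands in LPS, *Cxcl2* made up 70.5%, *Cxcl1* 24.0%, *Cxcl3* 5.43% and *Cxcl5* 0.0136%. In T0+LPS the shares were 70.8%, 23.5%, 5.62% and 0.0203%.

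**Figure D2:**
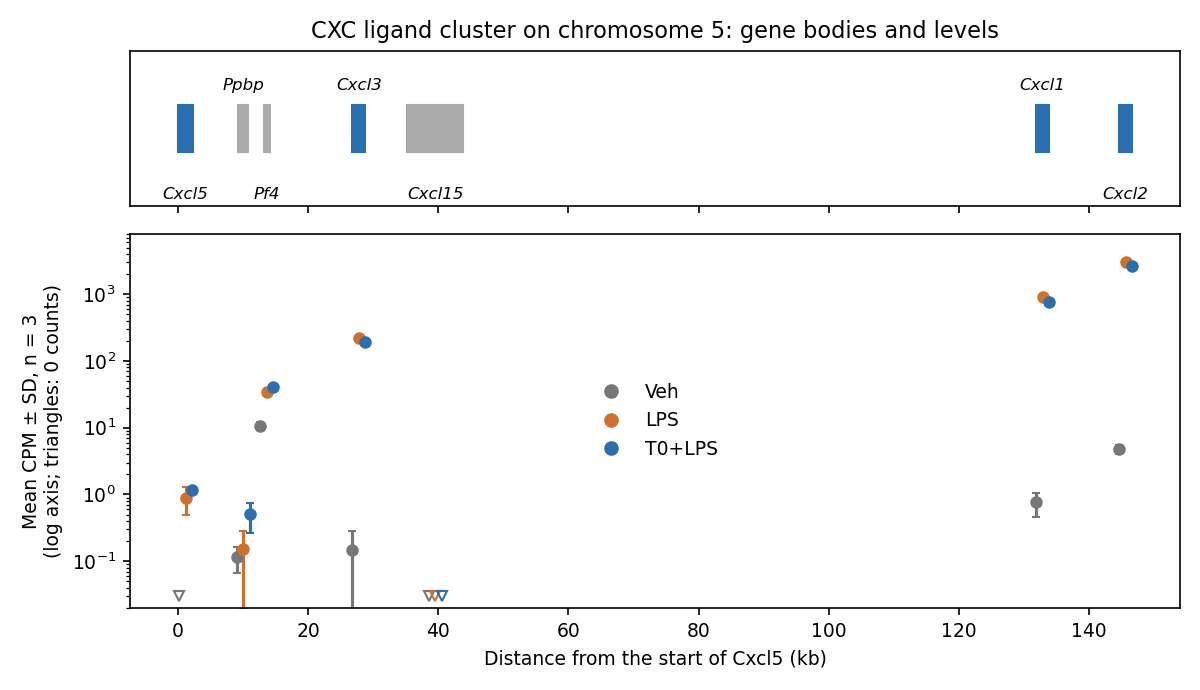
Gene bodies of the CXC ligand cluster (upper panel; blue, the ligands described; grey, other genes) and the mean CPM ± SD of 3 libraries per group (lower panel, log axis; triangles, 0 counts) by distance in kb from the start of *Cxcl5*. *Cxcl1* and *Cxcl2* at the right reach 906 and 3038 CPM in LPS, *Cxcl5* at the left 0.898 CPM, and *Cxcl15* has no reads.

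Near-identical sequence limits what is known of *Cxcl3*. In the GENCODE vM21 transcripts *Cxcl2* and *Cxcl3* share an identical run of 110 bases, whereas *Cxcl1* shares at most 23 bases with either. Of all 50-base windows, 5.75% of those in *Cxcl2* also occur in *Cxcl3*. If reads fell evenly, that stretch would account for 175 CPM of *Cxcl2* in LPS, beside the 220 CPM counted for *Cxcl3*. How reads matching both genes were counted is not given in the sources used here, so the level of *Cxcl3*, and its changes, are uncertain to that extent.

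To ask whether the LXR agonist alters these ligands, T0+LPS was compared with LPS. The changes were small next to the LPS rise: *Cxcl1* and *Cxcl2* were lower with T0 and passed the test. No member was called higher by edgeR, DESeq2 or limma-voom. At an unadjusted p under 0.05, 1 member (*Cxcl16* in edgeR) was higher and 3 were lower in each of these fits. The share of all genes at that unadjusted threshold was not counted. *Cxcl1* was at 760, 742 and 785 CPM in the T0+LPS libraries, where the LPS libraries had 888 to 920 CPM. *Cxcl2* was at 2629, 2575 and 2649 CPM, beside 3019 to 3056 CPM in LPS. All T0+LPS libraries lay below all LPS libraries for both genes. The log2 fold change was -0.25 for *Cxcl1* (standard error 0.04, adjusted p = 0.0031, edgeR's quasi-likelihood test) and -0.21 for *Cxcl2* (standard error 0.04, adjusted p = 0.0048). In linear terms the mean fell by 15.9% for *Cxcl1* and by 13.9% for *Cxcl2*. Both members were called in every alternative fit and without each library in turn. Of all 9348 genes tested, 1.83% were called lower and 1.35% higher, and 9.62% had all T0+LPS libraries below all LPS libraries.

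**Figure D3:**
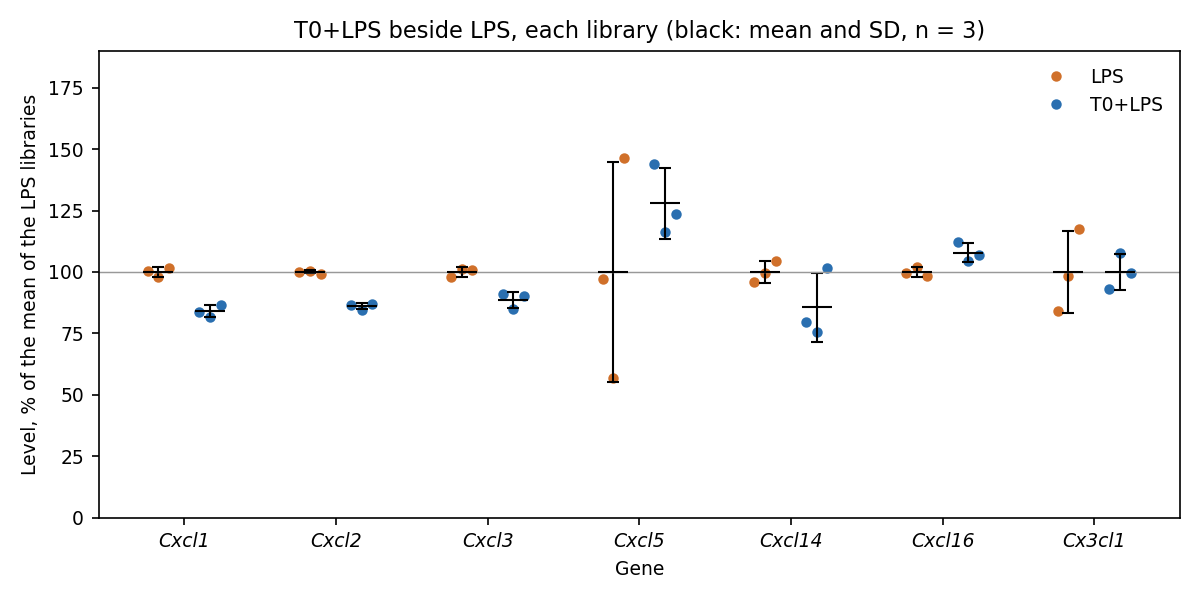
Level of each ligand gene in every LPS and T0+LPS library, as a percent of the mean of the LPS libraries, with the mean and SD of 3 libraries in black. The T0+LPS libraries of *Cxcl1* and *Cxcl2* sit at 81.8% to 87.2% and those of *Cxcl3* at 85.0% to 91.0%, below all LPS libraries, those of *Cxcl16* at 104.6% to 112.2%, above all LPS libraries, and the points of *Cxcl5*, *Cxcl14* and *Cx3cl1* overlap between groups.

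*Cxcl3* was at 200.3, 187 and 199 CPM in T0+LPS and 215 to 223 CPM in LPS. Its groups did not overlap, but the log2 fold change of -0.17 (standard error 0.05) missed the threshold with an adjusted p of 0.063 from edgeR, and adjusted p ranged from 0.051 to 0.097 over the alternative fits. *Cxcl5* had a log2 fold change of 0.36 with a 95% interval of -0.39 to 1.11 (edgeR), from 35 reads in all in LPS and 48 in T0+LPS, too few to resolve a change of the size seen in *Cxcl1*.

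The ligands outside the cluster did not pass the test. *Cxcl16* stood apart in the opposite direction, with 675, 629 and 643 CPM in T0+LPS against 592 to 615 CPM in LPS. Its log2 fold change was 0.11 (standard error 0.04, adjusted p = 0.26, edgeR), and 9.51% of all genes tested likewise had every T0+LPS library above every LPS library. *Cx3cl1*, at 13.9, 16.2 and 14.9 CPM in T0+LPS, fell within the LPS range of 12.6 to 17.6 CPM. The interval of its log2 difference was -0.25 to 0.25, which leaves room for a change as large as that of *Cxcl1*. *Cxcl14*, at 9.82, 9.33 and 12.5 CPM, overlapped the LPS libraries, with a log2 fold change of -0.22 and an interval of -0.48 to 0.04 (adjusted p = 0.46, edgeR). The plot of T0 effects gives the width of these intervals beside genes of related function.

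**Figure D4:**
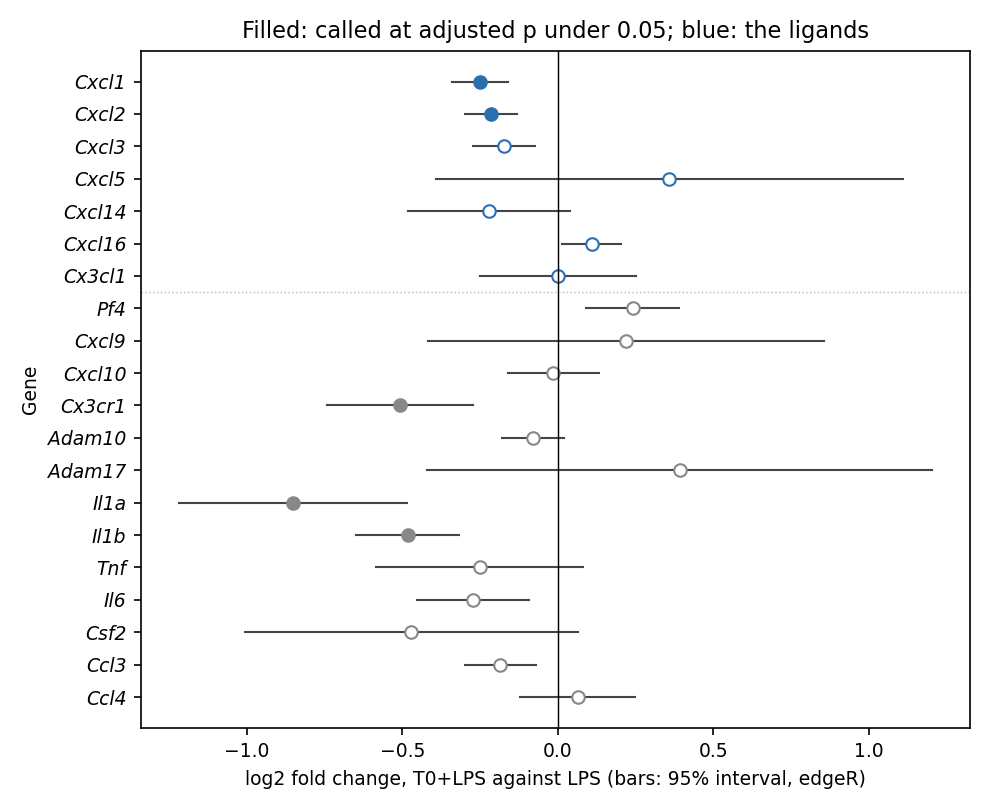
Difference between T0+LPS and LPS on the log2 scale with its 95% interval, derived from the fold change and F statistic of edgeR. Shown are the 7 ligand genes (blue, above the dotted line) and the tested genes among other CXC ligands, ligand receptors, sheddases and neutrophil-acting cytokines (grey). Filled points were called at an adjusted p under 0.05. *Cxcl1* and *Cxcl2* have short intervals left of 0, and *Il1a*, *Il1b* and *Cx3cr1* lie further left at -0.85, -0.48 and -0.51.

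Most of these genes were still well above Veh in the T0+LPS cultures. In T0+LPS against Veh, a comparison that shares its libraries with both others, 6 of 7 members were called higher. Of the 9636 genes tested, 32.4% were called higher and 35.6% had no overlap in that direction. *Cxcl5* was among the 6 members. With 0 reads in each Veh library, it passed the filter on low counts only through its T0+LPS reads, so nothing is drawn from its call. In log2 fold change, *Cxcl1* was at 9.96, *Cxcl2* at 9.08 and *Cxcl3* at 10.37, where LPS against Veh had 10.24, 9.32 and 10.57. *Cxcl16* was at 1.99 and *Cx3cl1* at 4.30, where LPS against Veh had 1.90 and 4.32. Of the LPS rise in mean CPM, T0+LPS kept 84.1% for *Cxcl1*, 86.1% for *Cxcl2*, 88.8% for *Cxcl3* and 110.7% for *Cxcl16*. Veh was the baseline of both groups here, since no library received T0 without LPS, and an effect of T0 on resting levels was not tested. *Cxcl14* was at -0.22 (adjusted p = 0.17, edgeR), and was called lower at -0.35 (adjusted p = 0.046, edgeR) without T0+LPS replicate 3. With library totals alone it was called lower at -0.48 (adjusted p = 0.0044, edgeR). That scaling put the median over all 9636 genes at -0.29, where it was -0.026 with TMM.

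Ratios of one ligand to another within a library do not depend on scaling, so they show whether members moved unequally. Among 15 pairs of the 6 members with enough reads, 5 had T0+LPS libraries that did not overlap the LPS libraries. Of these, 4 set *Cxcl16* against another ligand: the log2 ratio to *Cxcl16* changed by -0.36 for *Cxcl1*, -0.32 for *Cxcl2*, -0.28 for *Cxcl3* and -0.34 for *Cxcl14*. The fifth was *Cxcl1* to *Cxcl3*, at -0.08. Each gave p = 0.1 in an exact 2-sided permutation test, the smallest that 3 against 3 allows. The adjusted p of that test over the 15 pairs was 0.3, so none passed. The share of such pairs among all genes was not counted, and pairs that hold the same gene are not independent. No conclusion is drawn from the number of pairs. *Cxcl1* to *Cxcl2* changed by -0.03 (p = 0.2, exact permutation test).

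Of the 5 receptors, 4 had almost no reads. *Cxcr1*, *Cxcr2* and *Ackr1* had 0 to 2 reads per library and *Cxcr6* 0 to 6. *Cx3cr1*, the receptor of CX3CL1, was the one receptor tested. It fell from a mean of 22.0 CPM in Veh to 18.0 in LPS (log2 fold change -0.28, adjusted p = 0.01) and to 12.7 in T0+LPS (-0.51 against LPS, standard error 0.11, adjusted p = 0.018, edgeR), with groups apart each time. Of the sheddases, *Adam10* was at 264, 255 and 241 CPM on average in Veh, LPS and T0+LPS. It was not called in LPS against Veh (-0.05, adjusted p = 0.33) or in T0+LPS against LPS (-0.08, adjusted p = 0.51), where its T0+LPS libraries nevertheless all lay below the LPS libraries. It was called lower in T0+LPS against Veh (log2 fold change -0.16, adjusted p = 0.0012, edgeR), as 32.9% of genes tested were. *Adam17* was counted on 99 unshared bases of 4550, so its level was not measured.

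Of 9 other CXC ligands, 3 had enough reads to test. All 3 rose with LPS, beside 32.9% of all genes tested. *Cxcl10* rose by 6.73, *Cxcl9* by 4.22 and *Pf4* by 1.66 on the log2 scale, the first pair being interferon-induced ligands of CXCR3. None of the 3 was called in T0+LPS against LPS by edgeR, DESeq2 or limma-voom. In each of these fits 1 was higher at an unadjusted p under 0.05, a threshold at which the share of all genes was not counted. *Cxcl10* was at -0.01 with an interval of -0.16 to 0.13, *Cxcl9* at 0.22, and *Pf4* at 0.24 (adjusted p = 0.091, edgeR). *Cxcl13* and *Cxcl15* had 0 reads, *Cxcl11* was listed at 0 but had 19 unshared bases of 1604 on which to be counted, and *Ppbp*, *Cxcl12* and *Cxcl17* had too few to test.

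A set of 3 further lists puts the ligands beside genes of their pathway. Among NF-κB subunits and inhibitors, 10 of 12 were tested and all 10 rose with LPS, beside 32.9% of all genes tested, led by *Tnfaip3* at 5.79 on its 431 unshared bases, *Nfkbie* at 4.999, *Nfkbia* at 4.95 and *Bcl3* at 3.92, each a regulator of NF-κB. None of the 10 was called in T0+LPS against LPS by edgeR, DESeq2 or limma-voom. At an unadjusted p under 0.05, 6 were lower and 1 higher in edgeR, 4 and 0 in DESeq2, and 5 and 1 in limma-voom. The share of all genes at that unadjusted threshold was not counted, so no shift of the list is read from these counts. The median log2 fold change of the 10 in edgeR was -0.11, where the median of all genes was 0.00. Among regulators of cytokine mRNA decay and stability, 7 of 10 were tested. With LPS 5 rose and 2 fell, beside 32.9% and 31.2% of all genes, *Zc3h12a* (Regnase-1) by 3.41 and *Zfp36* (tristetraprolin) by 1.01 upward, and *Zfp36l2* and *Zfp36l1* at -2.65 and -2.21. With T0, *Zfp36*, whose product promotes decay of cytokine mRNAs, was the one member called, at -0.25 (standard error 0.05, adjusted p = 0.015, edgeR), so 1 of 7 was lower beside 1.83% of all genes. Among other cytokines that recruit or expand neutrophils, 7 of 8 were tested and all 7 rose with LPS (32.9% of all genes), led by *Il1b* at 9.34 and *Il6* at 7.50. With T0, 2 of the 7 were called lower, beside 1.83% of all genes tested, *Il1a* at -0.85 (adjusted p = 0.011) and *Il1b* at -0.48 (adjusted p = 0.0022, edgeR), both encoding IL-1 cytokines, and the median of the 7 was -0.27. The 5 not called included *Tnf*, at -0.25 with an interval of -0.59 to 0.08, counted on 48 unshared bases of 1653.

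The genes whose profiles over the 9 libraries were closest to each ligand were found by the root-mean-square difference of centred log2(CPM + 1) among 7298 genes of at least 5 CPM. *Cxcl1* and *Cxcl2* were closest to each other, at a difference of 0.055, followed for both by *Socs3* (0.28 and 0.31) and *Il1b* (0.32 and 0.33). *Socs3*, an inhibitor of cytokine receptor signaling, was at 0.702, 624 and 478 CPM in Veh, LPS and T0+LPS. *Cxcl3* was closest to *Gbp5* (0.26), *Clec4e* (0.28) and *Socs3* (0.41), *Cxcl16* to *Ikbke* (0.054), *Lacc1* (0.078) and *Mllt6* (0.080), and *Cx3cl1* to *Psd* (0.14), *Pde4b* (0.14) and *Fas* (0.15). *Cxcl14*, which hardly varied, was closest to *Nme4* (0.093), *Kif13a* (0.095) and *Klhl28* (0.097). For *Cxcl5*, whose few reads make a profile coarse, they were *Siah2* (0.13), *Mturn* (0.14) and *Glrx* (0.14). Adding 1 CPM shrinks the step of genes near 0 in Veh, so closeness on this scale is not closeness in fold: *Clec4e* rose by 7.16 on the log2 scale in edgeR, where *Cxcl3* rose by 10.57. All of these profiles share the step from Veh, since 6 of the 9 libraries received LPS.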

How the data were processed

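RNA-seq was done on polyadenylated RNA of 9 BMDM cultures, 3 each of Veh, LPS and T0+LPS. The authors trimmed adaptors with cutadapt, aligned reads to mm10 with HISAT2 and counted them on RefSeq transcripts with featureCounts, and the counts they deposited are whole reads, not normalized. Strand and multi-mapping settings, and the harvest time of Veh, are not given in the sources used here. Fold values and adjusted p-values deposited for T0+LPS against LPS, and a gene list for LPS against Veh, were not used. Of the table, 9 count columns were used and 0 had no sample.

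Rows of a symbol were summed, genes kept with filterByExpr, scaled by TMM and tested with the quasi-likelihood functions of edgeR 4.0.16 (R 4.3.3) on the 6 libraries of a comparison, with Benjamini-Hochberg adjustment over all genes tested and calls at 0.05. Standard errors and 95% intervals of log2 fold changes, where not marked as DESeq2, were derived from the fold change and F statistic of edgeR. DESeq2's own standard errors can be wider, as for *Il1b* in T0+LPS against LPS (0.13, where the derived one was 0.078). Members and gene lists were chosen with earlier results of these data known. Of a list, called members were named, at most 4 per comparison by size of change, with others where a sentence on a ligand needed them. Alternatives were DESeq2 1.42.0, voom of limma 3.58.1, other scalings and filters, unsummed rows, thinning, a replicate block, all 9 libraries in 1 fit, and leaving out each library. Scripts were tested on simulated data. Library pairs within a group differed by a chi-square per degree of freedom of 2.64 to 6.75, more than sampling noise, and all 9 were kept.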

Additional observations from a re-analysis of the deposited data

How the results depend on the processing

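The calls of *Cxcl1*, *Cxcl2*, *Cxcl3*, *Cxcl16* and *Cx3cl1* against Veh, and those of *Cxcl1* and *Cxcl2* between T0+LPS and LPS, held in all 10 alternative fits and without each library in turn, where the T0 effect ranged from -0.27 to -0.23 (*Cxcl1*, adjusted p 0.0034 to 0.031, edgeR) and from -0.22 to -0.20 (*Cxcl2*, adjusted p 0.0034 to 0.046). Library totals alone gave 1694 genes higher and 5411 lower in LPS against Veh, 1659 and 5523 in T0+LPS against Veh, where 1 member (*Cxcl14*) was then called lower, as it was without T0+LPS replicate 3 (range 0 to 1). With no filter on low counts, T0+LPS against LPS had 225 genes higher and 285 lower. Leaving out 1 library gave 59 to 167 higher and 82 to 191 lower, the lowest of both without LPS replicate 1; without T0+LPS replicate 2 it was 78 and 94, and without T0+LPS replicate 1 103 were lower. *Cxcl14* in LPS against Veh changed sign to -0.25 with library totals and without Veh replicate 1 or 3 or LPS replicate 3 (range -0.051 to 0.17). *Cx3cl1* in T0+LPS against LPS did so at -0.0045 with library totals, -0.051 when thinned, and without LPS replicate 1 or 2 or T0+LPS replicate 2 (range -0.11 to 0.13). With 1 library left out, within-library ratios that changed sign ranged from -0.079 to 0.094 (*Cxcl1* to *Cxcl14*), -0.052 to 0.14 (*Cxcl2* to *Cxcl14*), -0.0028 to 0.18 (*Cxcl3* to *Cxcl14*) and -0.037 to 0.21 (*Cxcl16* to *Cx3cl1*). The log2 fold change of *Cxcl3* ranged from 9.94 to 11.23 in LPS against Veh and from 9.74 to 11.04 in T0+LPS against Veh, lowest without Veh replicate 1 and highest without Veh replicate 2. The order of RPKM levels was the same without TMM, which scales all genes of a library alike and so could hardly change it. For these changes the cause was not tested.

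With the replicate number as a block, T0+LPS against LPS had 155 genes higher and 230 lower, against 126 and 171 without it, and the same numbers of members were called in every comparison. The numbers share no stated origin, and same-numbered libraries did not deviate together (correlations of -0.0135 to 0.0462). Depth limits *Cxcl5* most, with at most 17 reads in a library, and the folds of *Cxcl1* and *Cxcl3* against Veh.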
